A study of Mus musculus with 6 samples.

Results

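In all, 10 genes were followed as markers of oncofetal reactivation and of liver progenitor cells in the livers of mice that develop hepatocellular carcinoma (HCC): *Afp*, *Gpc3*, *H19*, *Igf2*, *Dlk1*, *Igf2bp3*, *Golm1*, *Ly6d*, *Cd44* and *Prom1*. They were selected by gene symbol, with earlier results of these data known. All 10 were found among the 52459 genes of the count table, and 9 of them were among the 17032 genes with enough counts to test, *Igf2bp3* being too low. *Golm1*, *Ly6d*, *Cd44* and *Prom1* were lower in each of the 3 sgPrdx2 livers than in any of the 3 sgCtrl livers. *Afp*, *Gpc3*, *H19*, *Igf2* and *Dlk1* overlapped between the groups, and *H19* and *Igf2* differed more between livers of the same group than between the groups.

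The RNA-Seq came from the livers of 6 male C57BL6J mice of the Alb-Cre/Cas9 F1 generation, aged 8 months. At 4 to 5 weeks of age, 3 mice (5.1, 7.1 and 7.2) received AAV8-U6-sgCtrl and 3 mice (1.1, 1.3 and 3.2) received AAV8-U6-sgPrdx2 by intravenous injection. All 6 mice were given diethylnitrosamine (DEN, a hepatocyte carcinogen) at 100 mg/kg 3 weeks after the vector, and CDAHFD, a choline-deficient high-fat diet that injures the liver, for 6 months from 1 week after DEN. No liver without DEN and CDAHFD is compared here, so the values do not show how far either group lies from a healthy liver. The albumin promoter limits Cre, and with it Cas9, to cells of the hepatocyte lineage, in which Cre can also be active in some bile duct cells, and AAV8 carries the guide mainly into hepatocytes, so that stellate, endothelial and immune cells are not the targets of the editing. Whether the frozen pieces held tumor nodules is not given in the sources used here. Because each library is a mixture of all cells of the liver, fewer cells of a type and less RNA per cell cannot be told apart.

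Total counts ranged from 37462102 to 56865293 per liver, so that 3 counts, the upper limit that a count of 0 allows, corresponded to 0.0555 to 0.0921 CPM. Values are given as counts-per-million (CPM), scaled by the trimmed mean of M-values (TMM), with log2 fold changes of sgPrdx2 over sgCtrl livers and adjusted p-values from edgeR's quasi-likelihood test across all tested genes. *Prdx2* itself, which encodes the peroxidase targeted by the guide, had 4783, 5247 and 6939 counts in the sgCtrl livers and 4345, 6052 and 4858 in the sgPrdx2 livers (log2 fold change 0.0082, edgeR adjusted p = 0.983). Since frameshifts left by Cas9 can spare the transcript, the *Prdx2* counts do not check the labels.

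The oncofetal genes are active in the embryonic liver, are silenced after birth and can be switched on again in HCC. Afp is the main plasma protein of the fetus, a relative of albumin, and has long been used as a blood marker of HCC. *H19* and *Igf2* are neighbors in an imprinted domain in which a shared control region lets the maternal chromosome express the noncoding RNA *H19* and the paternal chromosome express the growth factor gene *Igf2*. Cd44 and Prom1 (CD133) are surface proteins by which progenitor and tumor-initiating cells have been sorted, although leukocytes also carry Cd44 and bile duct cells also carry Prom1.

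The promoters of 3 of the genes that were lower in sgPrdx2 livers are shown together with that of *Afp*, which did not separate the groups, to show how unlike they are in base composition. A promoter entry was matched for 8 of the 10 genes. Of the 2 entries of *Prom1*, the upstream one is shown, and the other (chr5:44094769-44095018, minus strand) held 3 CG pairs, an AP-1 match 189 bases before its start and no GC or CCAAT box. Each sequence is the 250 bases before the RefSeq transcription start (GRCm38.p6), written from 5′ to 3′ on the strand of the gene, and capitals mark matches, on either strand, to 5 motifs, namely TATAAA for the TATA box, CCAAT for the box of that name, GGGCGG for the GC box, TGANTCA for AP-1 and the 10-letter consensus of NF-kB. The *Cd44* promoter lies at chr2:102901666-102901915 (minus strand), that of *Golm1* at chr13:59675785-59676034 (minus strand), that of *Prom1* at chr5:44101737-44101986 (minus strand) and that of *Afp* at chr5:90490464-90490713 (plus strand).
Cd44: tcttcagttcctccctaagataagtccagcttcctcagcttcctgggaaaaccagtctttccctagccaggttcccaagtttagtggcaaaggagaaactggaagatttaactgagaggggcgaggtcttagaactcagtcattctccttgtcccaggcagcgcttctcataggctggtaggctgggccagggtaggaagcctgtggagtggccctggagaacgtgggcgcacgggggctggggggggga
Golm1: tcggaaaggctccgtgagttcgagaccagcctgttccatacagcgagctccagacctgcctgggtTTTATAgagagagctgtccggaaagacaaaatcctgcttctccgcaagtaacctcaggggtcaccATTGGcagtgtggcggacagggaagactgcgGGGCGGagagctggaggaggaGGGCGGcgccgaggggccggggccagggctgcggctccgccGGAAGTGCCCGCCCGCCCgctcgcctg
Prom1: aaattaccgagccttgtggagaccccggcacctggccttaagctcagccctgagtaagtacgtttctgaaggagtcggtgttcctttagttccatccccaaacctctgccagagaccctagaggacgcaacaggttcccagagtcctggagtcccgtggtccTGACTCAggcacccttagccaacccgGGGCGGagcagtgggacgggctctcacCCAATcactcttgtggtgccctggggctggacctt
Afp: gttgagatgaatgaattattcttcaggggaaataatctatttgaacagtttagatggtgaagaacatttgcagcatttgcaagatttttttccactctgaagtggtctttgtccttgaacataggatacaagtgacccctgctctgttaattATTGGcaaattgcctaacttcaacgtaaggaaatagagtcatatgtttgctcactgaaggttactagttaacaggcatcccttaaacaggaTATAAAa

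The *Golm1* promoter held 20 CG pairs, that of *Prom1* 9, that of *Cd44* 5 and that of *Afp* 1, against a median of 6 over the 32851 promoters of the reference table. *Golm1* had a TATA box 185 bases and a CCAAT box 120 bases before the start. It also had 4 GC boxes, the farthest starting 89 bases and the nearest 15 bases before the start. An NF-kB match 27 bases before the start overlapped only the GC box that began 19 bases before it. At the start shown, *Prom1* had an AP-1 match 88 bases, a GC box 62 bases and a CCAAT box 35 bases before the start. *Afp* had a CCAAT box 98 bases before the RefSeq start and a TATA box that began 7 bases before it. The GENCODE M21 start of *Afp*, chr5:90490737, lies downstream of this RefSeq start, so both boxes are farther from it. *Cd44* held none of the motifs searched, TEAD (GGAATG) and STAT (TTCNNNGAA) included. Of all promoters, 12.4% held a TATA box, 33.8% a CCAAT box, 32.7% a GC box, 6.75% an AP-1 match, 4.65% an NF-kB match, 12.6% a TEAD match and 7.02% a STAT match. A match describes the letters and not a bound site.

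**Figure D1:**
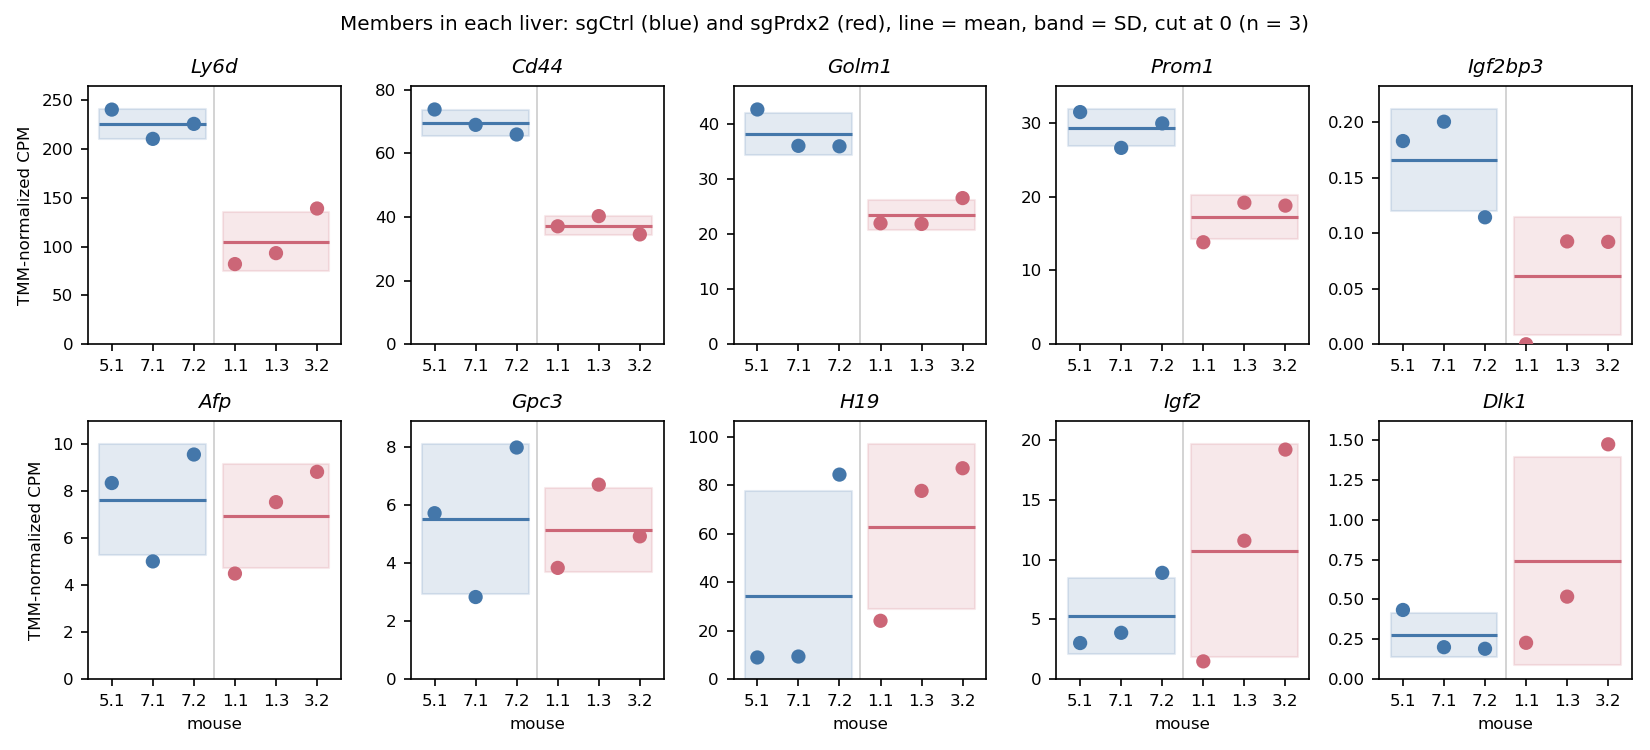
Each panel shows 1 of the 10 genes, with the TMM-normalized CPM (vertical axis, from 0) in each liver (horizontal axis, mouse number; blue, sgCtrl; red, sgPrdx2), the mean of 3 livers as a line and the SD as a band that stops at 0. The 3 sgPrdx2 livers lie below the 3 sgCtrl livers for *Ly6d*, *Cd44*, *Golm1*, *Prom1* and the barely detected *Igf2bp3*, whereas the groups overlap for the 5 genes of the lower row.

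*Cd44*, *Ly6d*, *Golm1* and *Prom1* were lower in sgPrdx2 livers and are described together for that reason. *Cd44*, which encodes the main hyaluronan receptor (chr2:102811141-102901665, minus strand), was at 73.8, 69.0 and 65.9 CPM in sgCtrl livers 5.1, 7.1 and 7.2 and at 37.1, 40.3 and 34.5 CPM in sgPrdx2 livers 1.1, 1.3 and 3.2. The groups were far apart and the livers of each group close together, with means of 69.6 ± 3.97 and 37.3 ± 2.88 CPM (SD, n = 3 each). The log2 fold change was −0.90 (SE 0.12, 95% interval −1.18 to −0.62, edgeR adjusted p = 0.0328), based on 3100 to 3465 counts per sgCtrl and 1124 to 2178 per sgPrdx2 liver. Of all tested genes, 86.6% varied at least as much within groups as *Cd44*.

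Per length of transcript, *Ly6d* was the most highly expressed of the 10 genes. It encodes a small membrane-anchored protein of the lymphocyte antigen 6 family known from B cell precursors and keratinocytes (chr15:74762056-74763620, minus strand), and its level was 240, 210 and 226 CPM in the sgCtrl livers and 82.1, 93.3 and 139 CPM in the sgPrdx2 livers. All 3 sgCtrl livers lay above the highest sgPrdx2 liver, 3.2, which was itself set off from the other two. *Ly6d* had a log2 fold change of −1.11 (SE 0.21, 95% interval −1.59 to −0.62, edgeR adjusted p = 0.0415).

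*Golm1* encodes GP73, a Golgi membrane protein that is also found in the serum of patients with liver disease (chr13:59634626-59675811, minus strand). It was measured at 42.7, 36.1 and 36.0 CPM in the sgCtrl livers and at 22.0, 21.9 and 26.6 CPM in the sgPrdx2 livers, without overlap. This gave a log2 fold change of −0.70 (SE 0.14, 95% interval −1.02 to −0.39, edgeR adjusted p = 0.0431). The gene overlaps *Naa35* on the opposite strand, which was at 29.1 to 35.5 CPM in sgCtrl and 32.6 to 36.2 CPM in sgPrdx2 livers (edgeR adjusted p = 0.504), and whether the counting used strand is not given.

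*Prom1*, which encodes a protein of membrane protrusions (chr5:43993620-44102032, minus strand), was at 31.5, 26.6 and 29.9 CPM in the sgCtrl livers and at 13.8, 19.2 and 18.8 CPM in the sgPrdx2 livers. Again every sgCtrl liver was above every sgPrdx2 liver, with a log2 fold change of −0.76 (SE 0.16, 95% interval −1.13 to −0.40, edgeR adjusted p = 0.0471).

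In all, 4 of the 9 tested genes were called lower in sgPrdx2 livers at an adjusted p under 0.05 and 0 were called higher, where 3.33% of all tested genes were called in either direction and 1.54% were called lower. That background leaned with some scalings of the libraries. Of the called genes, 262 of 567 were lower with TMM, 250 of 568 with RLE size factors and 268 of 566 with upper-quartile scaling. With total counts only, 3041 of 3247 were lower, and with scaling to 6 housekeeping genes 919 of 989 were. With TMM, the housekeeping genes *Cox8a*, *Ndufa2*, *Atp5b* and *Bag6* were themselves higher without overlap in sgPrdx2 livers (log2 fold changes 0.65, 0.68, 0.45 and 0.26). *Hint1* (0.42) and *Hnrnpa2b1* (−0.07) overlapped. The same 4 of the 9 tested marker genes were lower without overlap between the groups, against 17.5% of all tested genes. The median log2 fold change of the 9 genes was −0.14, and that of all tested genes was −0.02. The 4 calls were close to the threshold and depended on most of the livers being included. Without sgCtrl liver 5.1, sgCtrl liver 7.2, sgPrdx2 liver 1.1 or sgPrdx2 liver 1.3, 0 of the 4 and 0 of all other genes were called by edgeR, and without sgCtrl liver 7.1 *Cd44* alone of the 4 was, whereas all 4 were called without sgPrdx2 liver 3.2. Over these 6 fits the edgeR adjusted p ranged from 0.0376 to 0.143 for *Cd44*, from 0.0321 to 0.153 for *Ly6d*, from 0.0376 to 0.154 for *Golm1* and from 0.0467 to 0.162 for *Prom1*, while the log2 fold changes stayed between −0.94 and −0.84, −1.35 and −0.96, −0.79 and −0.62, and −0.83 and −0.63, respectively, and the unadjusted p of each of the 4 genes was at most 0.0064. With DESeq2 on all 6 livers the adjusted p was 1.72e-07 for *Cd44*, 4.38e-05 for *Ly6d*, 0.000861 for *Golm1* and 0.00144 for *Prom1*. DESeq2 called more genes in general, 14% of those to which it gave an adjusted p, against 3.33% with edgeR.

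**Figure D2:**
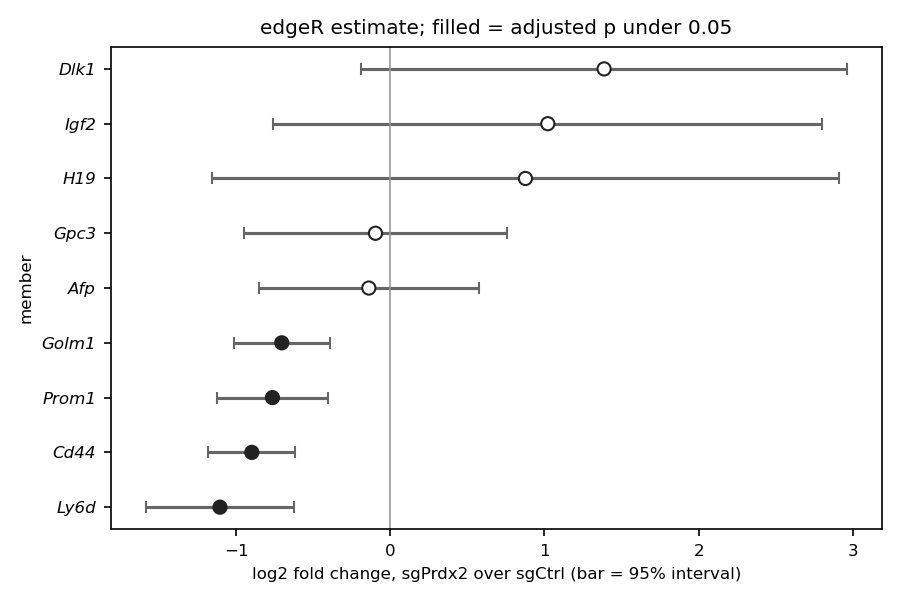
Log2 fold change of sgPrdx2 over sgCtrl livers (horizontal axis) for the 9 tested genes (vertical axis), with the 95% interval from edgeR as a bar and filled points where the adjusted p was under 0.05. *Ly6d*, *Cd44*, *Prom1* and *Golm1* lie between −1.11 and −0.70 with short intervals, and the intervals of *Afp*, *Gpc3*, *H19*, *Igf2* and *Dlk1* include 0.

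The 2 secreted or anchored proteins used most often as markers of HCC did not separate the groups. *Afp* (chr5:90490737-90508907, plus strand) was at 8.34, 5.00 and 9.55 CPM in the sgCtrl livers and at 4.49, 7.53 and 8.81 CPM in the sgPrdx2 livers. The highest and the next to lowest liver were both sgCtrl. Its log2 fold change was −0.14 (SE 0.31, edgeR adjusted p = 0.802), with a 95% interval from −0.85 to 0.58, and a change of a size inside this range cannot be told from none at the spread of these livers.

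*Gpc3*, which encodes a heparan sulfate proteoglycan attached to the surface of fetal liver and HCC cells (chrX:52272426-52613950, minus strand), was at 5.71, 2.82 and 7.97 CPM in the sgCtrl livers and at 3.83, 6.69 and 4.91 CPM in the sgPrdx2 livers. The sgCtrl livers 7.1 and 7.2 were the lowest and the highest of all 6, and enclosed the whole sgPrdx2 group. Its log2 fold change was −0.10 (SE 0.37, 95% interval −0.95 to 0.76, edgeR adjusted p = 0.888). The signs of *Afp* and *Gpc3* rested on single livers. Without sgCtrl liver 7.2 the log2 fold changes were 0.056 and 0.27, and without sgPrdx2 liver 1.1 they were 0.096 and 0.079, respectively.

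*H19* and *Igf2*, whose gene bodies lie 72.6 kb apart on chromosome 7 (chr7:142575529-142578143 and chr7:142650766-142666816, both minus strand), were the most uneven of the genes. *H19* had 390 and 418 counts in sgCtrl livers 5.1 and 7.1 but 4432 in sgCtrl liver 7.2, and 1055, 4197 and 2831 in sgPrdx2 livers 1.1, 1.3 and 3.2. In CPM these were 8.91, 9.30 and 84.3 in sgCtrl livers and 24.0, 77.6 and 86.9 in sgPrdx2 livers. The highest value was 9.46 times the lowest in the sgCtrl group and 3.62 times in the sgPrdx2 group. The within-group SD of *H19* was 1.44 on the log2(CPM + 1) scale, which 0.0822% of the tested genes reached.

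*Igf2* was at 3.02, 3.87 and 8.88 CPM in the sgCtrl livers and at 1.48, 11.6 and 19.2 CPM in the sgPrdx2 livers, a range of 2.95 times within the first group and 13.0 times within the second. The livers 7.2, 1.3 and 3.2 were the 3 highest for both genes, 1 of them sgCtrl and 2 sgPrdx2. The order within them differed, and liver 1.1 was the lowest for *Igf2* but not for *H19*. The number of *H19* counts per *Igf2* count was 2.95, 2.40 and 9.49 in the sgCtrl livers and 16.2, 6.70 and 4.53 in the sgPrdx2 livers.

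Neither gene differed detectably between the groups. The log2 fold change of *H19* was 0.88 (SE 0.88, 95% interval −1.16 to 2.91, edgeR adjusted p = 0.563). It was 2.79 without sgCtrl liver 7.2 (edgeR unadjusted p = 0.0011, adjusted p = 0.143) and 0.42 without sgCtrl liver 5.1. Without sgCtrl liver 7.2, 0 of all genes were called. With each of the 6 livers left out in turn, the edgeR unadjusted p of *H19* ranged from 0.0011 to 0.642. The log2 fold change of *Igf2* was 1.02 (SE 0.77, 95% interval −0.76 to 2.80, edgeR adjusted p = 0.440). It was 0.32 without sgPrdx2 liver 3.2 and 1.64 without sgCtrl liver 7.2. Of the 50-base stretches of *Igf2* transcripts, 61.2% are shared in the GENCODE M21 annotation with *Gm49394*, an overlapping gene on the same strand. Depending on the annotation used for counting, reads there may not have been counted for *Igf2*, which would raise the *H19* to *Igf2* ratios above. The antisense gene *Igf2os* had at most 2 counts in any liver, and the microRNA gene *Mir675* inside *H19* had 0 counts in all 6 livers.

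*Dlk1*, the gene of a transmembrane protein carried by fetal hepatoblasts (chr12:109452823-109463336, plus strand), was near the limit of detection. It had 19, 9 and 10 counts in the sgCtrl livers and 10, 28 and 48 counts in the sgPrdx2 livers, or 0.434, 0.200 and 0.190 CPM against 0.228, 0.518 and 1.47 CPM. The groups overlapped, and sgPrdx2 liver 3.2 alone was above 1 CPM. For *Dlk1* the log2 fold change was 1.39 (SE 0.68, 95% interval −0.19 to 2.96, edgeR adjusted p = 0.251), and 0.48 without that liver.

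*Igf2bp3*, whose product binds *Igf2* mRNA among other targets and is made mainly in embryos and tumors (chr6:49085223-49214957, minus strand), had 8, 9 and 6 counts in the sgCtrl livers and 0, 5 and 3 in the sgPrdx2 livers. These counts were too low for the test, and a count of 0 in sgPrdx2 liver 1.1 allows up to 0.0684 CPM. Per length of transcript, the 10 genes spanned a wide range. *Ly6d* was at 303 CPM per kilobase of exon (RPKM, group mean) in sgCtrl and 141 in sgPrdx2 livers, *H19* at 13.9 and 25.6, *Cd44* at 10.3 and 5.50, *Golm1* at 8.65 and 5.31, *Prom1* at 4.09 and 2.41, *Afp* at 2.27 and 2.06, *Gpc3* at 2.05 and 1.91, *Igf2* at 0.919 and 1.88, *Dlk1* at 0.0486 and 0.131, and *Igf2bp3* at 0.0203 and 0.0075. In this order *Afp* and *Gpc3* are neighbors whose levels did not differ beyond the spread of the livers, and the place of *H19* and *Igf2* changed from liver to liver.

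Read liver by liver, no liver was highest for the whole set. Among the 9 tested genes, sgCtrl liver 5.1 had the highest value of 4 genes, which were the 4 that were lower in sgPrdx2 livers. sgCtrl liver 7.2 was highest for *Afp* and *Gpc3*, and sgPrdx2 liver 3.2 was highest for *H19*, *Igf2* and *Dlk1*. sgPrdx2 liver 1.1 had the lowest value of 4 genes, namely *Ly6d*, *Prom1*, *Afp* and *Igf2*, and each of the other 5 livers was lowest for 1 gene. As tumor burden per liver is not in the files used here, whether these differences follow it was not tested.

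Genes of the imprinted domain that holds *Dlk1* also stood out in single livers. *Meg3*, a maternally expressed noncoding RNA that starts 77.7 kb from *Dlk1*, was at 62.0, 87.1 and 75.7 CPM in the sgCtrl livers and at 80.2, 145 and 386 CPM in the sgPrdx2 livers, with its highest value in the liver that was highest for *Dlk1*. *Mirg*, a microRNA host gene of the same domain, was at 1.99, 3.45 and 5.33 CPM in sgCtrl and 3.76, 6.45 and 18.2 CPM in sgPrdx2 livers. *Rian*, a host of small nucleolar RNAs there, was at 17.2, 29.5 and 32.4 CPM in sgCtrl and 18.6, 33.3 and 42.8 CPM in sgPrdx2 livers. sgPrdx2 liver 3.2 was thus the highest for *Dlk1*, *Meg3*, *Rian* and *Mirg*.

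*Rtl1*, a paternally expressed gene derived from a retrotransposon, lies 125.9 kb from *Dlk1* and showed another pattern. It was at 0.0914, 6.96 and 51.9 CPM in sgCtrl livers 5.1, 7.1 and 7.2 and at 0.0228, 0.0740 and 0.522 CPM in the sgPrdx2 livers. Its levels in the control livers ranged from 4 to 2726 counts, and the lowest of them overlapped the sgPrdx2 livers (log2 fold change −6.78, edgeR adjusted p = 0.0872). *Dlk1*, expressed from the same parental chromosome, was at 0.190 CPM in the liver with the most *Rtl1*. *Rtl1* also overlaps microRNA genes on the opposite strand. Apart from *Rtl1*, these genes and their order by liver were picked from the list of imprinted growth genes with their values in view.

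**Figure D3:**
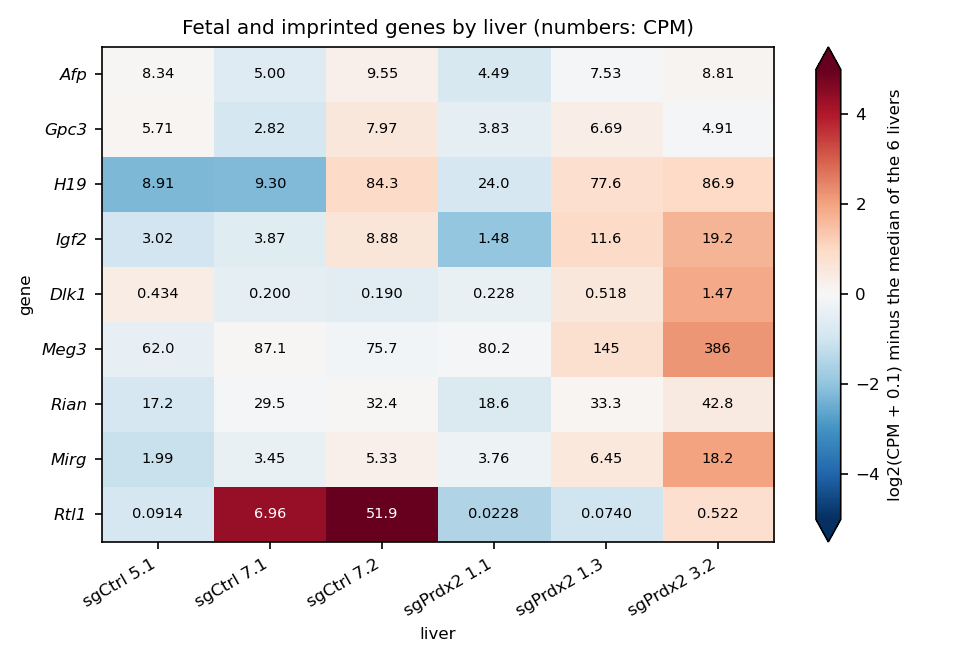
Rows are *Afp*, *Gpc3* and genes of the imprinted *H19*–*Igf2* and *Dlk1*–*Meg3* domains and columns are the 6 livers, with the CPM printed in each cell and the color giving log2(CPM + 0.1) minus the median of the 6 livers (colors end at the ends of the scale). *H19* and *Igf2* are high in livers 7.2, 1.3 and 3.2, *Dlk1*, *Meg3* and *Mirg* in liver 3.2, and *Rtl1* at 6.96 and 51.9 CPM in livers 7.1 and 7.2.

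Of all tested genes, 24.9% had an unadjusted p under 0.05 with edgeR, and DESeq2 called 14% of the 14799 genes to which it gave an adjusted p. These shares, with the 3.33% called by edgeR and the 17.5% lower without overlap given above, are the background of the counts in each gene list. As the lists were chosen with earlier results of these data known, these shares do not make the counts a test. Of 24 imprinted growth genes, 20 were tested and 0 were called by edgeR (3 with total counts only), with 6 at an unadjusted p under 0.05 (3 higher and 3 lower), near the share of all genes, and 2 called by DESeq2. The smallest p in this list was that of *Slc38a4*, an amino acid transporter gene, with a log2 fold change of 0.91 (edgeR adjusted p = 0.0580). Of 19 regulators of the fetal liver program, 16 were tested and 0 called by edgeR (2 with total counts only), with 4 at an unadjusted p under 0.05 (3 higher and 1 lower), again near the share of all genes, and 1 called by DESeq2. *Cebpa*, a transcription factor of mature hepatocytes, had the smallest p (log2 fold change 0.67, edgeR adjusted p = 0.0772). *Zhx2* and *Zbtb20*, repressors that keep *Afp* silent after birth, were at 20.6 and 17.3 CPM (adjusted p = 0.329) and at 66.7 and 69.2 CPM (adjusted p = 0.890) in sgCtrl and sgPrdx2 livers.

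Among 22 relatives of the 10 genes, 16 were tested, of which 2 were called higher and 1 lower (1 in all with scaling to housekeeping genes). *Igf2bp2*, the paralog of *Igf2bp3* that remains on after birth, fell, from 6.69, 3.89 and 5.63 CPM in sgCtrl livers to 1.98, 2.26 and 1.87 CPM in sgPrdx2 livers, without overlap (log2 fold change −1.40, SE 0.24, edgeR adjusted p = 0.0383). The genes called higher were the albumin family members *Afm* (1.002, adjusted p = 0.0455) and *Alb* (0.97, adjusted p = 0.0472), neighbors of *Afp* in the albumin gene cluster and products of mature hepatocytes. *Prom2*, the paralog of *Prom1*, was at 0.422 CPM in sgCtrl and 0.988 CPM in sgPrdx2 livers (log2 fold change 1.23, edgeR adjusted p = 0.0692), opposite in sign to *Prom1*. *Igf2bp1*, the third of the family, had 0 counts in all 6 livers.

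Of the 16 tested genes of the insulin-like growth factor axis, in which *Igf2* is a ligand, 1 was called higher and 1 lower. Of all tested genes, 3.33% were called in either direction. *Igfals*, whose product holds the growth factors in a circulating complex, rose by 1.27 on the log2 scale (edgeR adjusted p = 0.0394), and *Igfbp5*, a binding protein of stromal cells, fell by 1.08 (adjusted p = 0.0491). In this list 7 genes had an unadjusted p under 0.05 (4 higher and 3 lower), and 5 were called by DESeq2. With edgeR, 4 were called with total counts only, 1 with housekeeping genes, 1 with RLE size factors and 0 to 2 with 1 liver left out. Of the 14 tested genes of hyaluronan metabolism and Cd44 partners, 2 were called lower and 0 higher (7 in all with total counts only and 6 with scaling to housekeeping genes). These were *Msn*, whose product moesin ties Cd44 to actin (log2 fold change −0.99, edgeR adjusted p = 0.0458), and *Vcan*, a hyaluronan-binding proteoglycan (−1.06, adjusted p = 0.0483). Of the 14 genes, 8 were lower without overlap, against 17.5% of all tested genes. *Msn*, 1 of these, was at 140 to 150 CPM in sgCtrl and 52.2 to 86.5 CPM in sgPrdx2 livers.

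Other markers of progenitor cells and tumors gave 0 calls by edgeR with TMM, with RLE size factors and with upper-quartile scaling. With total counts only, 9 of 20 progenitor, 6 of 23 tumor and 8 of 20 cell cycle genes were called, and with scaling to housekeeping genes 3, 2 and 2 were. The median log2 fold change of all tested genes was shifted under these scalings, to −0.39 with total counts and −0.38 with housekeeping genes. Of 20 tested progenitor and stem cell markers, 9 had an unadjusted p under 0.05, all lower, against 24.9% of all genes, and 2 were called by DESeq2. The smallest p were those of *Itga6* (log2 fold change −0.74, edgeR adjusted p = 0.0555) and *Klf4* (−0.91, adjusted p = 0.104). Of 23 other markers of HCC and DEN-induced tumors, 7 had an unadjusted p under 0.05 (2 higher and 5 lower), near the share of all genes, and 1 was called by DESeq2. *Lcn2* (log2 fold change −0.73, edgeR adjusted p = 0.123) and *Scd2* (−0.41, adjusted p = 0.130) came first. Of 20 cell cycle genes, 8 had an unadjusted p under 0.05, all lower, against 24.9% of all genes, and 5 were called by DESeq2. The smallest p were those of *Bub1b* (−0.81, edgeR adjusted p = 0.0668) and *Pcna* (−0.53, adjusted p = 0.0752). The summed cell cycle genes were at 159, 232 and 251 CPM in sgCtrl livers and 133, 165 and 153 CPM in sgPrdx2 livers, which overlapped.

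Summed markers of leukocytes, bile duct, stellate and endothelial cells were lower in each sgPrdx2 liver than in any sgCtrl liver, as were the 4 genes, although few single markers of the last 3 were called. Of 17 leukocyte and macrophage markers, 5 were called lower, including *Itgb2* (log2 fold change −1.06), *Gpnmb* (−1.08) and *Itgam* (−1.24), and their sum was 1924 to 2447 CPM in sgCtrl and 1198 to 1383 CPM in sgPrdx2 livers. Of 12 cholangiocyte markers 0 were called by edgeR, with 5 at an unadjusted p under 0.05, all lower, and 2 called by DESeq2, whereas edgeR called 5 with total counts only and 2 with scaling to housekeeping genes, and their sum was 1836 to 2058 CPM against 1372 to 1581 CPM. The stellate cell and fibroblast list had 1 of 13 genes called lower (*Postn*, −0.98), with sums of 2405 to 2776 and 1758 to 1844 CPM. The endothelial list had 1 of 10 called lower (*Pecam1*, −0.77), with sums of 580 to 596 and 476 to 532 CPM.

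In the other direction, 8 of 14 tested hepatocyte markers were called higher, among them *Uox* (log2 fold change 0.99), *Ttr* (1.35) and *Cyp2e1* (0.96), and their sum was 84961 to 92843 CPM in sgCtrl and 149911 to 200803 CPM in sgPrdx2 livers. Of the 14 markers, 3 were called with scaling to housekeeping genes, 7 with total counts only, and 0 to 4 with 1 liver left out (0 without sgCtrl liver 5.1, sgCtrl liver 7.2, sgPrdx2 liver 1.1 or sgPrdx2 liver 1.3). These levels fit the label of liver tissue, and no marker in the cell type lists was at 0. Of 10 B cell markers 0 were called by edgeR (1 with either of these scalings), with 2 at an unadjusted p under 0.05 (1 higher and 1 lower), below the share of all genes, and 1 called by DESeq2, and their sum was 70.1 to 89.4 CPM in sgCtrl and 78.3 to 167 CPM in sgPrdx2 livers.

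Within each liver, *Cd44* was set beside *Ptprc*, the pan-leukocyte gene CD45, and *Prom1* beside *Epcam*, a marker of bile duct and progenitor cells, pairs picked with their values known. The number of *Cd44* counts per *Ptprc* count was 1.04, 0.984 and 1.13 in sgCtrl livers and 0.979, 0.907 and 1.29 in sgPrdx2 livers, which overlapped. Against *Csf1r*, a macrophage gene, it was 0.298, 0.278 and 0.217 in sgCtrl and 0.197, 0.214 and 0.168 in sgPrdx2 livers, which did not. *Ptprc* itself had a log2 fold change of −0.87 (edgeR adjusted p = 0.0555), beside −0.90 for *Cd44*.

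The number of *Prom1* counts per *Epcam* count was 0.477, 0.490 and 0.503 in sgCtrl livers and 0.301, 0.411 and 0.403 in sgPrdx2 livers. For *Golm1* per *Epcam* count it was 0.648, 0.664 and 0.605 against 0.479, 0.468 and 0.570, and for *Ly6d* per *Epcam* count it was 3.65, 3.87 and 3.80 against 1.79, 2.00 and 2.98. All 3 ratios were lower without overlap in sgPrdx2 livers, where *Epcam* itself had a log2 fold change of −0.37 (edgeR adjusted p = 0.123). *Ly6d* was also compared with the B cell gene *Cd79b*, with 44.4, 46.6 and 36.3 counts per *Cd79b* count in sgCtrl and 12.5, 13.4 and 16.6 in sgPrdx2 livers. *Cd79b* itself was higher without overlap in sgPrdx2 livers (log2 fold change 0.44, edgeR adjusted p = 0.187), which enlarges the fall of this ratio. *Cd22*, another B cell gene, was lower without overlap (−0.49, edgeR adjusted p = 0.0863). The part of cell type makeup in the lower levels of the 4 genes was not tested.

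**Figure D4:**
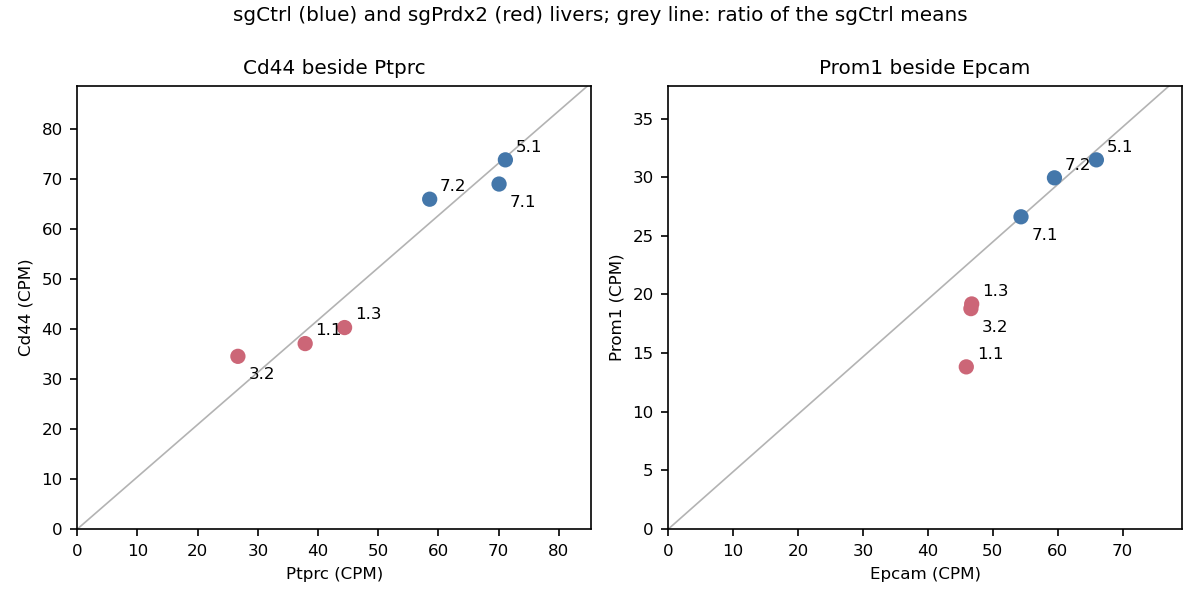
Each point is a liver (blue, sgCtrl; red, sgPrdx2; labels, mouse numbers), with *Cd44* against *Ptprc* on the left and *Prom1* against *Epcam* on the right, both axes in CPM from 0. The grey line has the ratio of the sgCtrl means. For *Cd44*, sgPrdx2 livers 1.1 and 1.3 lie below the line and 3.2 above it, with 0.979, 0.907 and 1.29 counts per *Ptprc* count, and all 3 sgPrdx2 livers lie below the line for *Prom1*, whose counts per *Epcam* count were 0.301 to 0.411 against 0.477 to 0.503 in sgCtrl livers.

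The genes whose log2(CPM + 1), centered over the 6 livers, was closest to that of each tested gene were sought among 14122 other genes that averaged 1 CPM or more (14123 for *Dlk1*). The root-mean-square difference was 0.0541 for *Myof*, nearest to *Cd44*, followed by *Lhfpl2* and *B4galt6*, where the median gene was at 0.472. *Golm1* was closest to *Arhgap10* (0.0484, median gene 0.405), *Tspan5* and *Tifab*, *Prom1* to *Sh3kbp1* (0.0758, median gene 0.440), *Clec4e* and *Lat2*, and *Ly6d* to *9530034E10Rik* (0.0841, median gene 0.638), *Mmp12* and *Aoc1*. For example, *Mmp12*, the gene of macrophage elastase, was at 720, 549 and 551 CPM in sgCtrl and 212, 257 and 312 CPM in sgPrdx2 livers.

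*H19* and *Igf2* had no such close partners. *Anxa8* was nearest to both *H19* (0.624, median gene 1.40) and *Igf2* (0.522, median gene 1.07), and was at 0.548, 0.0445 and 3.86 CPM in sgCtrl and 0.296, 3.27 and 3.22 CPM in sgPrdx2 livers, with the same 3 livers highest. *Nnmt* and *Rhox5* followed for *H19*, and *Mirg* and *Asns*, which encodes asparagine synthetase, for *Igf2*. *Asns* was at 13.0, 8.27 and 18.5 CPM in sgCtrl and 2.03, 15.1 and 20.0 CPM in sgPrdx2 livers. *Afp* was nearest to *Sectm1a* (0.114, median gene 0.423), *Snhg15* and *Large2*, *Gpc3* to *Folr1* (0.149, median gene 0.468), *Tcf24* and *Gm16062*, and *Dlk1* to *Csrp2* (0.0708, median gene 0.429), *Sfi1* and *Cluap1*. These are likenesses over 6 points that share their libraries, and for low genes such as *Dlk1* the added 1 CPM compresses the differences. The nearest genes lie below the median gene by construction. The differences also grow with the spread of the gene itself, whose within-group SD was 1.44 for *H19* and 0.0955 for *Cd44*.

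**Figure D5:**
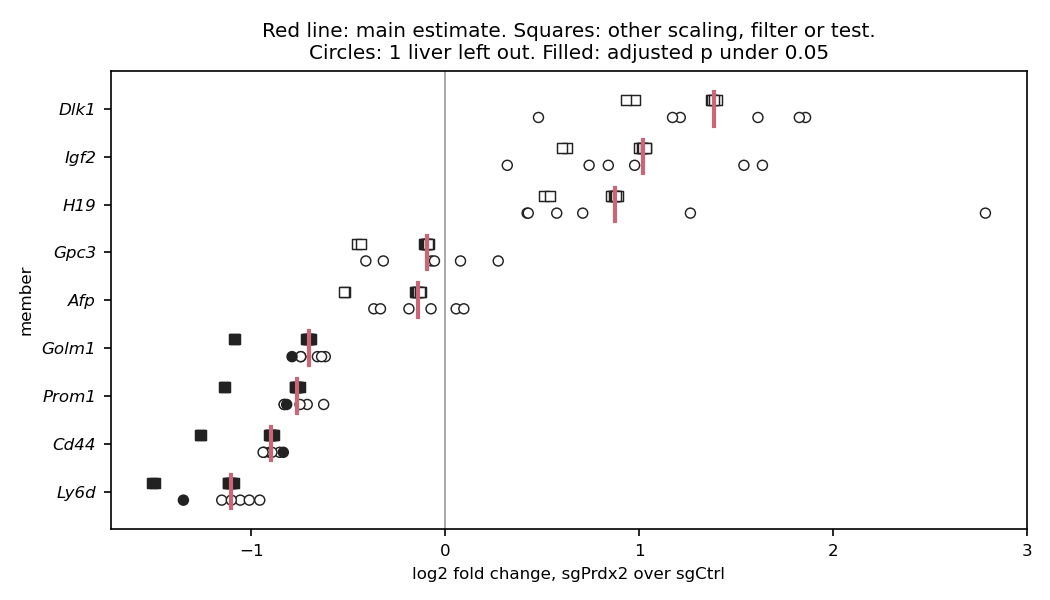
Log2 fold change of sgPrdx2 over sgCtrl livers (horizontal axis) of the 9 tested genes (vertical axis), as reported (red line), under other scalings, filters and tests (squares) and with 1 liver left out (circles), filled where the adjusted p was under 0.05. *Golm1*, *Prom1*, *Cd44* and *Ly6d* stay below 0 at every point, *Afp* and *Gpc3* lie on both sides of 0, and *H19* reaches 2.79 when sgCtrl liver 7.2 is left out.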

How the data were processed

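Livers were flash frozen and RNA was extracted with Trizol. The authors deposited a table of counts of reads per gene and liver, whole numbers without normalization, and another with the result of DESeq2 between the groups (mean level, fold changes and p-values), which was not used. Per the labels' processing notes the tools were HISAT2, HTSeq and DESeq2 and the build was GRCm38; the annotation release and strandedness are not given in the sources used here. All 6 count columns were matched to livers by mouse number.

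Counts were analyzed in R 4.3.3 with edgeR 4.0.16 (filterByExpr at its defaults, minimum count 10; TMM; glmQLFit and glmQLFTest, all 6 livers, no covariate), with Benjamini-Hochberg adjustment over the 17032 genes kept and a threshold of 0.05. The SE was taken from the fold change and the F statistic of each gene. DESeq2 1.42.0, other scalings, filters and thresholds, and leaving out each liver were alternatives. The biological coefficient of variation was 0.213. Different libraries differed well beyond counting noise, and p-values measure the spread between these 3 and 3 mice. The code was tested on simulated data. Positions and RPKM used GENCODE M21 (GRCm38), and promoters came from RefSeq.

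The 10 genes and all gene lists were chosen with earlier results of these data known. Besides the 10 genes and *Prdx2*, the text names called genes of each list (at most 4 by p, 3 for cell types), else the 2 with the smallest p, and the 3 genes nearest to each tested gene; other names (*Zhx2*, *Zbtb20*, *Prom2*, *Igf2bp1*, *Naa35*, *Ptprc*, *Csf1r*, *Epcam*, *Cd79b* and the imprinted neighbors of *Dlk1*) were chosen after their values were seen. A result that this rule would name is not reported here.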

Additional observations from a re-analysis of the deposited data

How the results depend on the processing

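The 4 genes called lower kept their sign in all 14 alternatives and were called under each alternative that used all 6 livers, except that 0 genes at all were called at an adjusted p under 0.01, where the 4 genes had an unadjusted p under 0.05 as before. Leaving out 1 liver gave 0 to 4 called genes of the 10 and 0 to 619 of all genes, while 3114 to 4436 genes had an unadjusted p under 0.05. Where 0 of all genes were called, all gene list calls were lost too. In the other fits list calls were lost or gained. For example, without sgPrdx2 liver 3.2, 7 leukocyte and macrophage and 4 hepatocyte markers were called, against 5 and 8 with all 6 livers. The number of all genes called was 3247 with total counts only (3041 lower), 989 with scaling to 6 housekeeping genes (919 lower), 1128 without the filter, 1767 at an adjusted p under 0.10 and 2066 with DESeq2. Normalization factors were 1.12 to 1.17 in sgCtrl and 0.805 to 0.951 in sgPrdx2 libraries. With total counts only and with housekeeping genes, the median over all genes shifted to −0.39 and −0.38 on the log2 scale and that over the 9 genes to −0.52 in both. Relative to these shifts *Cd44* was at −0.88 in both, *Ly6d* at −1.11 and −1.13, *Golm1* at −0.70 and −0.71, and *Prom1* at −0.75 and −0.76. The median of those of the 10 genes that were tested was −0.43 both without the filter, which adds *Igf2bp3*, and with at least 10 counts in every liver, −0.42 with DESeq2, and −0.41 to 0.079 with 1 liver left out (0.056 without sgCtrl liver 7.2, 0.079 without sgPrdx2 liver 1.1). The log2 fold change of *Prdx2* was −0.0046 with upper-quartile scaling, −0.37 with total counts, −0.38 with housekeeping genes, −0.0050 without the filter and −0.17 to 0.13 with 1 liver left out. *Afp* was at 0.056 and *Gpc3* at 0.27 without sgCtrl liver 7.2, and at 0.096 and 0.079 without sgPrdx2 liver 1.1. The cause of these changes was not tested. No paired analysis was possible because the groups share no mouse numbers. At these depths *Igf2bp3* and *Dlk1* were too low for firm statements.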

Other observations

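The levels of 3 further cell type markers are given, chosen after their values were seen. *Krt19*, a keratin of bile duct and progenitor cells, was at 94.2 CPM in sgCtrl liver 5.1 and at 32.3 and 38.4 CPM in the other sgCtrl livers, with 27.8, 37.1 and 44.3 CPM in the sgPrdx2 livers. *Clec4f*, a marker of Kupffer cells, the resident macrophages of the liver, was at 24.6, 64.3 and 144 CPM in the sgCtrl livers and at 84.1, 50.1 and 50.7 CPM in the sgPrdx2 livers. *Sox9*, a transcription factor of bile duct and progenitor cells, was at 24.5, 26.1 and 24.9 CPM in the sgCtrl livers and at 24.9, 26.8 and 19.8 CPM in the sgPrdx2 livers, and did not separate the groups as *Prom1* did.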
